A study of Mus musculus with 2 samples.

Results

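The nuclear-encoded genes of the respiratory chain and ATP synthase were examined in nucleoplasmic RNA of mouse macrophages. Members were all genes with a protein-coding transcript whose symbol begins with Ndufa, Ndufb, Ndufc, Ndufs, Ndufv, Uqcr, Cox4 to Cox8 or Atp5, together with Sdhb, Sdhc and Sdhd. The rule used names only and no measured value, and it found 93 of 55536 named genes. They comprised 38 genes named as complex I subunits, 8 complex I assembly factors (Ndufaf1 to Ndufaf8), 3 of complex II, 8 of complex III, 18 of complex IV and 18 of complex V, on 19 chromosomes, with 3 on X.

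Ribosomal RNA-depleted total RNA was sequenced from bone marrow-derived macrophages of strain C57BL/6J, stimulated with Lipid A at 100 ng/ml for 120 min. Lipid A, the membrane-anchoring moiety of lipopolysaccharide, activates the receptor Tlr4. RNA came from the nucleoplasm, although another label field gives the fraction as nucleus. The 2 libraries, biological replicates 1 and 2 with RNA inputs of 1 µg and 500 ng, form 1 group of unmodified cells and come from separate biosamples of 1 donor entry. Age and sex are not given in the labels, and no unstimulated or cytoplasmic sample was analysed here, so that levels below are not responses and no test between groups exists.

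The respiratory chain passes electrons from NADH through complex I, or from succinate through complex II, to ubiquinone, then through complex III and cytochrome c to complex IV, where oxygen is reduced. Complexes I, III and IV pump protons across the inner mitochondrial membrane, and complex V, the ATP synthase, uses the resulting gradient to make ATP. Most subunits are encoded in the nucleus and imported, and the rest are encoded by mitochondrial DNA. Macrophages activated through Tlr4 are known for a shift from oxidative phosphorylation to glycolysis, with complexes I and II as sources of signalling metabolites and oxygen radicals.

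Depth was 14374739 estimated counts for replicate 1 and 16372797 for replicate 2. Values below are TPM, an abundance per transcript length scaled to one total in each library, unless counts are named. All 8 macrophage markers were at 1 TPM or more in both libraries, from 16.1 TPM for Itgam to 859 TPM for Lyz2 as means. Over the 8 stromal markers, summed counts were 5164 in replicate 1 and 18 in replicate 2. TPM of the median gene was lower in replicate 2 by a log2 ratio of -0.58, so the libraries are compared relative to that median below. In bulk RNA, fewer cells of a type and less RNA per cell cannot be told apart.

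Among the promoters of these genes, 3 short motifs recurred, of factors known from work on respiratory genes: nuclear respiratory factor 1 (Nrf1), the ETS factor GABP (encoded by Gabpa and Gabpb1) and YY1. RefSeq promoter windows (GRCm38.p6, 250 bases before to 50 after each start) were matched by symbol for 75 of the 92 member symbols and gave 80 promoters. The Nrf1 motif, which reads GCGCA, any base and GCGC, searched on both strands, was found in 19 of the 80, or 23.8%, beside 6.38% of 21262 protein-coding promoters and 4.60% of all 32851. The ETS core CCGGAAG was in 22.5% of member promoters, beside 11.6% of protein-coding and 8.86% of all promoters. The longer form CCGGAAGT, which contains that core, was in 6.25%, beside 5.15% and 3.89%. The YY1 motif AAGATGGCG was in 8 of the 80 member promoters, beside 1.83% of protein-coding and 1.40% of all promoters. The letters TATAAA were also in 8 of the 80, beside 12.6% and 13.6%. At least one of the Nrf1, ETS core and YY1 motifs was in 47.5% of member promoters, beside 17.9% of protein-coding and 13.6% of all promoters.

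By gene, the Nrf1 motif was in 7 of 33 matched complex I subunits, 6 of 15 of complex V and 1 of 13 of complex IV. The following 30-base stretches show one match each, 5′ to 3′ on the gene's strand, with the motif in capitals. They were chosen as matches upstream of members with high RNA levels, and each of the 3 motifs is represented. A match describes the letters only, and binding was not measured.
Cox6a1, Nrf1 motif, chr5:115349101-115349130, minus strand: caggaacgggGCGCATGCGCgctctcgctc
Atp5k, Nrf1 motif, chr5:108434430-108434459, minus strand: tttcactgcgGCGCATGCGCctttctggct
Atp5h, Nrf1 motif, chr11:115420041-115420070, minus strand: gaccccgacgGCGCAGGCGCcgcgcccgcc
Uqcrh, ETS core, chr4:116075071-116075100, minus strand: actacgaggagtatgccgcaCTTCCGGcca
Atp5j, YY1 motif, chr16:84835045-84835074, minus strand: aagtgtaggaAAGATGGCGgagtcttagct
The ETS core of Uqcrh is read on the other strand, as CTTCCGG.

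RNA for the regulators themselves spanned a wide range. Of 12 regulator genes, 9 reached 1 TPM in both libraries. Nrf1 had the highest mean, with 29.0 TPM in replicate 1 and 14.4 TPM in replicate 2, where Pprc1 was higher at 15.3 TPM. Ppargc1a, the coactivator known for driving mitochondrial biogenesis in muscle and brown fat, had the lowest mean, with 1 count in each library, under the floor of 3 counts used here. Its relative Ppargc1b stood at 21.1 and 11.2 TPM. Gabpa was at 8.33 and 7.15 TPM, and Yy1 at 8.52 and 5.86 TPM.

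RNA of most respiratory chain genes was present at moderate levels in both libraries. Of the 93 members, 82 (88.2%) reached 1 TPM or more in both, whereas 40.4% of 22015 nuclear-encoded protein-coding genes did. The median over all members was 6.30 TPM and 6.02 TPM in replicates 1 and 2. At their mean over libraries, 28 members stood at 10 TPM or more and 10 below 1 TPM. The median member lay at the 75.3 percentile of nuclear-encoded protein-coding genes, and 7 members lay above the 90th. Together the members held 10025 counts, or 0.0707% (95% Wilson interval 0.0694 to 0.0721) of the counts of named genes, in replicate 1. In replicate 2 they held 12278 counts, or 0.0752% (0.0739 to 0.0765). The depth per gene was low: the median member had 46.8 estimated counts in replicate 1 and 68.0 in replicate 2, and 25 members had 100 or more in both. Levels of single members also depend on the deposited table: in the transcript table made directly from reads, called the read-based table here, the mean level of 12 of 83 members was over 1.5 times higher and that of 17 over 1.5 times lower than in the gene table. Intervals here cover counting error only, since reads were counted without molecular identifiers and may stem from copies of one molecule.

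**Figure D1:**
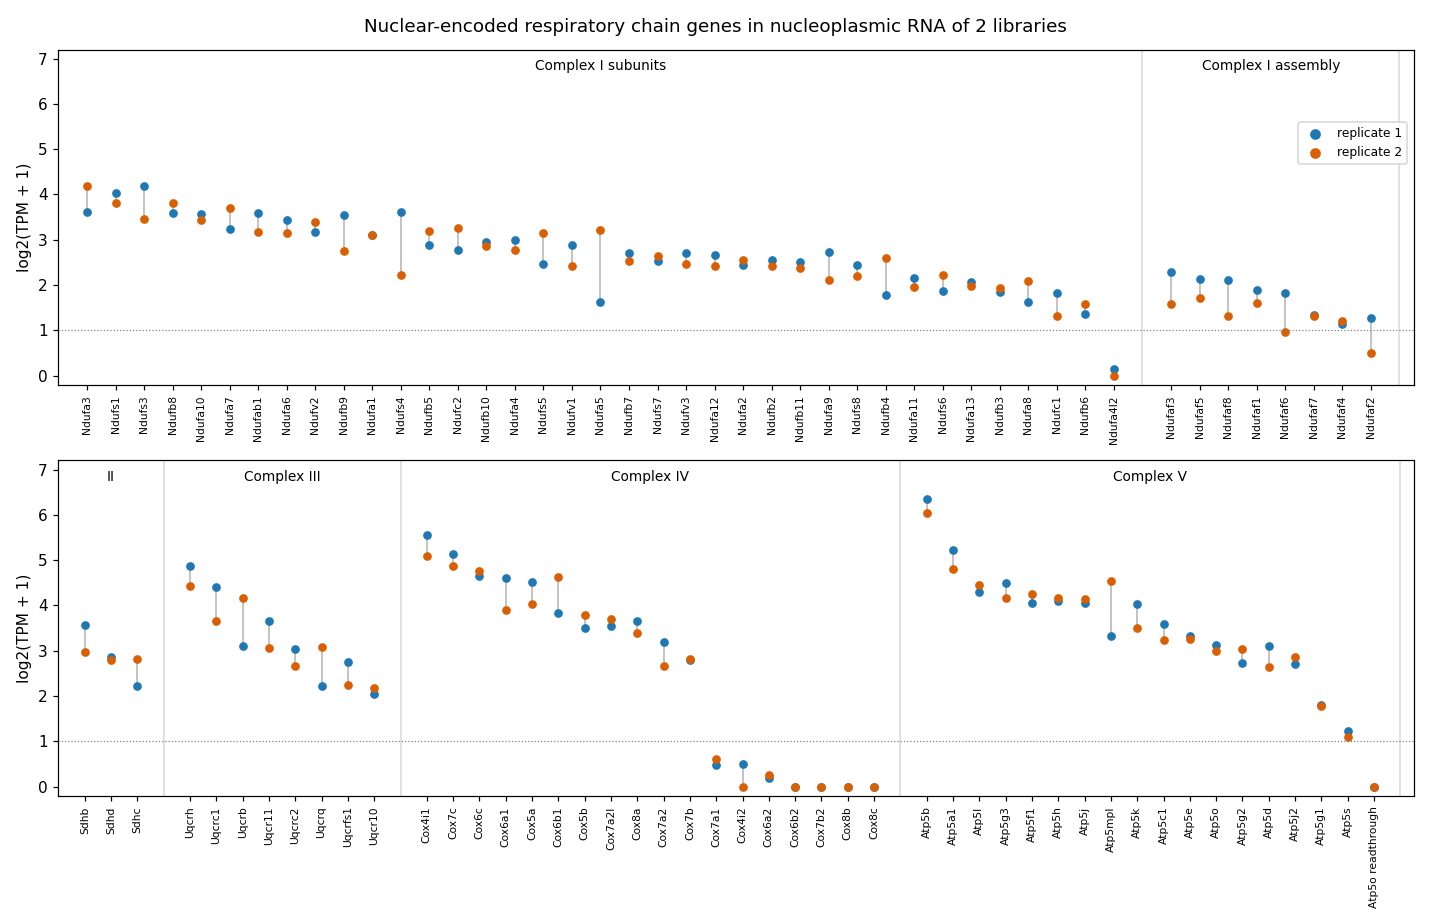
Level of each of 92 members on the log2(TPM + 1) scale, by complex and in order of mean TPM; each gene has 1 point per library joined by a line, and the dotted line marks 1 TPM. Levels fall gradually within complexes I and III, while complex IV divides into 11 genes above the line and 7 near or at 0.

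With undetected genes counted, complex V had the highest median, at 11.3 TPM over libraries, and 17 of its 18 genes were detected. Complex IV followed at 8.65 TPM (11 of 18 detected), then complex III at 7.92 TPM (8 of 8), complex II at 6.15 TPM (3 of 3) and complex I subunits at 5.29 TPM (37 of 38). Complex I assembly factors were lowest at 2.06 TPM (6 of 8). The per-library medians of complexes II, III and IV were 6.30 and 6.02, 7.40 and 7.46, and 9.25 and 7.78 TPM. The order of these 3 was the same in both libraries. Complex V, at 10.1 and 9.45 TPM, lay above complex IV in each library, but the gap was of the size by which complex IV itself differed between libraries. The complex IV median is also lowered by its undetected genes. Over detected genes only, the middle gene by mean was Cox6b1 in complex IV, at 18.4 TPM, and Atp5k in complex V, at 12.9 TPM. The order of complexes IV and V was then the other way round. In the read-based table complex II (5.04 TPM) lay below complex I (6.06 TPM), and complexes IV and V were at 8.96 and 9.09 TPM.

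Cytosolic ribosomal protein genes, whose proteins are likewise made in fixed proportions, had a higher median of 31.0 TPM over 79 genes. Mitochondrial ribosomal protein genes had a lower one, 3.23 TPM over 78 genes, with 74 detected. The 13 citric acid cycle genes were all detected and had a median of 12.1 TPM, from Suclg2 at 2.42 and 1.54 TPM to Dlst at 59.6 and 32.8 TPM.

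In complex I, the core subunit genes had a higher median than the accessory ones. Most nuclear-encoded core subunits carry the flavin or iron-sulfur clusters or bind quinone. The 7 nuclear core genes had a median of 8.80 TPM (8.05 and 9.56 in the libraries) and the 31 other subunit genes one of 5.16 TPM (5.52 and 4.90). Ndufs1 (chromosome 1, 63143596 to 63176833, mm10), which holds iron-sulfur clusters of the electron-input arm, stood at 15.4 TPM in replicate 1 and 13.0 TPM in replicate 2, but at 35.5 and 26.5 TPM in the read-based table. The small accessory subunit gene Ndufa3 was at 11.3 and 17.1 TPM, on 52 and 73 counts. The core genes Ndufs8, at 4.46 and 3.58 TPM, and Ndufs7, at 4.79 and 5.25 TPM, were near or below the median of the complex in the gene table. In the read-based table they stood at 14.1 and 9.78 TPM and at 15.3 and 8.96 TPM, above its complex I medians of 6.92 and 5.46 TPM, and the core median there was 12.1 TPM beside 4.68 TPM for the other subunits. The detected complex I subunit gene with the lowest mean was Ndufb6, at 1.57 and 2.01 TPM.

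Ndufa4l2, a paralogue of Ndufa4 known as a target of hypoxia-inducible factor, had 1 count in replicate 1 and 0 in replicate 2. Ndufa4 itself, named after complex I but since assigned to complex IV, stood at 6.98 and 5.81 TPM and held 98.6% and 100% of the TPM of this pair. Assembly factors, which help build complex I but are not part of it, were all low. Ndufaf3 had the highest mean, with 3.88 and 2.01 TPM. Ndufaf5 was at 3.40 and 2.30 TPM and Ndufaf8 at 3.31 and 1.50 TPM. In the read-based table their order by mean was reversed, with Ndufaf8 at 8.34 and 2.51 TPM and Ndufaf3 at 2.29 and 1.34 TPM. Ndufaf5, at 4.6 and 2.78 TPM there, lay between them in replicate 1 but above both in replicate 2. Ndufaf2 had the lowest mean, with 1.40 and 0.410 TPM from 6 and 4 counts. Over 40 assembly factors of the other complexes and of complex I that the name rule does not cover, 27 were detected and the median was 3.46 TPM. By mean, that list ran from Sdhaf1 (0.410 and 0.400 TPM) to the copper chaperone gene Cox17 (57.6 and 40.3 TPM).

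Complex II oxidises succinate. The iron-sulfur subunit gene Sdhb was at 10.9 TPM in replicate 1 and 6.91 TPM in replicate 2. The membrane anchor genes Sdhd and Sdhc stood at 6.30 and 5.99 TPM and at 3.64 and 6.02 TPM. Sdhb and Sdhc therefore lay apart in replicate 1 and close together in replicate 2. The catalytic subunit gene Sdha, outside the name rule, was higher in both libraries than these 3, at 30.5 and 21.6 TPM. By mean it was also the highest of 17 further core, cytochrome c, flavoprotein and ubiquinone synthesis genes, which had a median of 3.67 TPM and 14 detected. The lowest of that list, Coq8a, was at 0.440 and 0.560 TPM.

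In complex III, Uqcrh, the hinge subunit that contacts cytochrome c1, led with 28.1 TPM in replicate 1 and 20.4 TPM in replicate 2. Uqcrc1, a core subunit, stood at 20.2 and 11.7 TPM. Uqcrb, an accessory subunit near the quinone site, was at 7.54 TPM in replicate 1 and 17.1 TPM in replicate 2, from 35 and 116 counts. It ranked below Uqcrc1 in one library and above it in the other. The iron-sulfur protein gene Uqcrfs1 was at 5.76 and 3.74 TPM, and Uqcr10, a small subunit, was lowest at 3.10 and 3.50 TPM.

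In the gene table, complex IV genes divided into expressed and near-silent groups. Cox4i1 (chromosome 8, 120668222 to 120674207), a subunit involved in regulation by ATP, was highest, at 45.8 TPM in replicate 1 and 33.3 TPM in replicate 2. Cox7c was at 34.3 and 28.2 TPM and Cox6c at 24.1 and 26.1 TPM. The 7 tissue-restricted paralogues made up the near-silent group, with no value above 0.530 TPM in either library of that table.

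Those 7 are the alternative forms of subunits that also have a widely expressed form. Cox4i2, known from lung and from hypoxia, had 3 counts in replicate 1 and 0 in replicate 2, and Cox4i1 held 99.1% and 100% of the TPM of the pair. The heart and skeletal muscle forms Cox6a2 and Cox7a1 had 1 and 2 counts each, and a further such form, Cox8b, had 0 in both libraries. The testis forms Cox6b2, Cox7b2 and Cox8c were also at 0 in both. A count of 0 allows 3 counts, which for Cox8b corresponds to 1.45 and 0.969 TPM and for Cox6b2 to 0.827 and 0.549 TPM in the libraries. Their widely expressed counterparts stood at 23.3 and 13.9 TPM for Cox6a1, 13.2 and 23.6 TPM for Cox6b1, 11.7 and 9.46 TPM for Cox8a and 5.99 and 6.09 TPM for Cox7b. In every such set the form known from most tissues was the higher one in both libraries. Among the Cox7a forms, Cox7a2l, which encodes a factor that joins complexes III and IV into supercomplexes, was at 10.6 and 12.0 TPM and Cox7a2 at 8.10 and 5.32 TPM. In the read-based table this order turned, with 6.54 and 7.14 TPM for Cox7a2l and 14.7 and 9.74 TPM for Cox7a2. Defining genes of striated muscle and sperm were near 0 as well: the 8 striated muscle markers summed to 20 and 6 counts, and the 4 sperm markers to 0 and 0. The read-based table gave more counts to some of these forms, among them Cox8b with 10 and 3 counts (2.45 and 0.345 TPM). Cox4i2 had 62 and 9 counts there (4.41 and 0.350 TPM) and Cox7a1 22 and 14 (3.05 and 1.12 TPM). By that table Cox7a1 thus reached 1 TPM in both libraries.

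**Figure D2:**
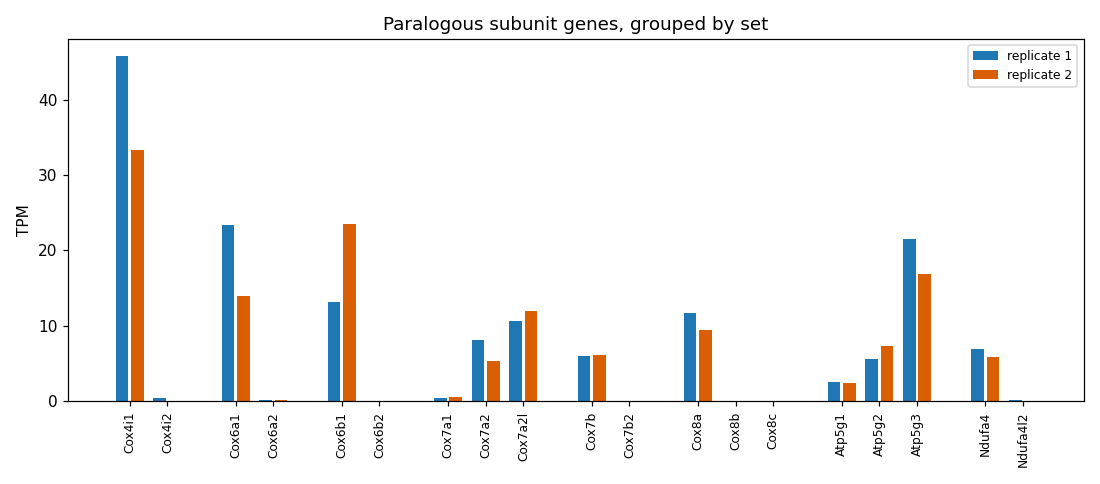
TPM of paralogous subunit genes in replicate 1 and replicate 2, with bars grouped by set and starting at 0. Within the Cox4, Cox6a, Cox6b, Cox7b and Cox8 sets 1 gene holds nearly all RNA, whereas Atp5g1, Atp5g2 and Atp5g3 are all present.

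In complex V, the catalytic beta subunit gene Atp5b (chromosome 10, 128083273 to 128090391) was the highest of all members in the gene table, at 80.6 TPM in replicate 1 and 64.9 TPM in replicate 2. It lay at the 96.8 percentile of nuclear-encoded protein-coding genes there. In the read-based table it stood at 52.1 and 38.5 TPM, below Cox4i1 at 62.4 and 41.0 TPM, and below Ndufa7 in mean. Its partner in the F1 head, the alpha subunit gene Atp5a1, was at 36.4 and 26.9 TPM. Both stand in equal numbers in the enzyme. Over all transcripts, Atp5b TPM exceeded Atp5a1 TPM in each library by more than either gene differed between libraries. Counts were closer, at 922 and 1279 for Atp5b and 1044 and 1242 for Atp5a1. The lengths that TPM divides by were 813 and 927 bases for Atp5b and 2039 and 2171 bases for Atp5a1. In both libraries a smaller share of Atp5b transcript TPM was in protein-coding transcripts, at 36.5% beside 94.7% for Atp5a1 in replicate 2. Both shares were lower in replicate 1. Over coding transcripts the lead of Atp5b is therefore lost: Atp5a1 lies above it in both libraries, though close to it in replicate 2. Whether the read-based table gives this order over coding transcripts was not tested. The stalk genes Atp5c1, Atp5d and Atp5e were lower, at 11.0 and 8.50, 7.57 and 5.27, and 8.96 and 8.60 TPM. Atp5l, a subunit of the membrane part that joins ATP synthases into dimers, was at 18.6 and 20.9 TPM. Atp5s, not a subunit of the mature enzyme in spite of its name, was the lowest detected gene of this complex at 1.34 and 1.13 TPM. A second gene that the annotation names Atp5o, which spans 91684398 to 91926982 on chromosome 16 and runs through the neighbouring gene Donson, had 0 counts in both libraries. The Atp5o gene proper had 67.5 and 90.3 estimated counts (7.70 and 6.93 TPM), and 50.3% of its 50-base words also occur in transcripts of other genes.

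The c ring of complex V, which turns as protons pass, is encoded by 3 genes for 1 mature protein. Over their last 78 codons Atp5g1, Atp5g2 and Atp5g3 encode identical amino acids, while their bases differ. Identity over those 234 bases was 84.6% between Atp5g1 and Atp5g2, 78.6% between Atp5g1 and Atp5g3, and 77.4% between Atp5g2 and Atp5g3. The last 60 coding bases before the stop codon are shown because these differences allow reads of the 3 genes to be told apart. They are from GENCODE M21 transcripts on mm10, 5′ to 3′ on the coding strand, and capitals mark the 18 positions at which the 3 are not all the same.
Atp5g1, chr11:96073107-96073166, minus strand: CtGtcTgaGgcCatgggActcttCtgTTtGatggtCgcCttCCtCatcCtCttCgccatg
Atp5g2, chr15:102663017-102663076, minus strand: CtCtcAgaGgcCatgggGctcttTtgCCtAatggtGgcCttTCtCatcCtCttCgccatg
Atp5g3, chr2:73908596-73908655, minus strand: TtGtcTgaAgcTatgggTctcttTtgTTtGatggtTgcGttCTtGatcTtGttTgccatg

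Over all transcripts, Atp5g3 had the most RNA of the 3 c-ring genes, at 21.5 TPM in replicate 1 and 16.9 TPM in replicate 2. Atp5g2 stood at 5.63 and 7.28 TPM and Atp5g1 at 2.50 and 2.43 TPM. The order was the same in both libraries. Atp5g3 held 72.5% and 63.6% of the TPM of the 3 genes, Atp5g2 19.0% and 27.3%, and Atp5g1 8.45% and 9.12%. Only 42.7% and 44.4% of Atp5g3 TPM was in protein-coding transcripts, beside 100% for Atp5g2 and Atp5g1 in both libraries. Over coding transcripts the lead of Atp5g3 is therefore smaller, and in replicate 2 it lies close to Atp5g2. The values of Atp5g2 and Atp5g1 are uncertain, because 87.4% and 66.0% of their 50-base words also occur in transcripts of other genes. For Atp5g2 the closest is a transcribed pseudogene, whereas none of the words of Atp5g3 are shared. The 39.3 and 73.9 estimated counts of Atp5g2 carried posterior SDs of 7.45 and 6.82. In the read-based table Atp5g2 was at 4.99 and 2.38 TPM and Atp5g1 at 2.79 and 2.24 TPM, so they lay close together in replicate 2.

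Other members also resemble copies elsewhere in the genome, as genes of this kind often do. For each of the 93 genes, the transcript with the highest TPM among those typed as protein-coding was cut into 50-base words. In 46 genes no word occurred in a transcript of another gene, in 30 genes 10% or more of the words did, and in 8 of these more than 50% did. Among 29 processed pseudogenes that each shared 10% or more of a member's words, 18 had 0 counts in both libraries and 2 had 10 or more in both. One of these 2, Ndufb4c, had 17.4 and 27.2 estimated counts beside 21.6 and 42.8 for its parent Ndufb4, so reads of the pair may be split. The other is the copy of Atp5g2. Where a member overlaps a neighbour, as Atp5j does with Gabpa and Cox4i1 with Emc8, reads cannot be assigned with certainty, because the sources used here do not say whether counting used strand.

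In complexes I, III and IV the mitochondrially encoded subunits held more counts than their nuclear partners, by ratios that differed widely between libraries. Cytoplasmic RNA was not analysed here, so these ratios describe the nuclear fraction and not whole cells. The 13 protein-coding genes of mitochondrial DNA stood at a median of 305 TPM (replicate 1) and 6384 TPM (replicate 2) and held 0.412% and 8.67% of counts. In complex I, 7 mitochondrial genes held 24611 counts in replicate 1 beside 3224 in 38 nuclear genes, or 7.63 per nuclear count. In replicate 2 they held 645555 beside 3829, or 169 per nuclear count. The corresponding ratios were 4.94 and 166 in complex III, whose sole mitochondrial gene is mt-Cytb, and 18.8 and 302 in complex IV. In complexes I, III and IV the ratio was thus higher in replicate 2 by 22.1, 33.6 and 16.1 times, while the nuclear counts of each complex differed little. Complex V gave 0.041 and 7.25 per nuclear count, but its mitochondrial genes mt-Atp8 and mt-Atp6 overlap, and mt-Atp6 was listed at 0 counts in replicate 1 and 15285 in replicate 2. How reads were divided between those genes is uncertain, as it is for mt-Nd4l and mt-Nd4.

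**Figure D3:**
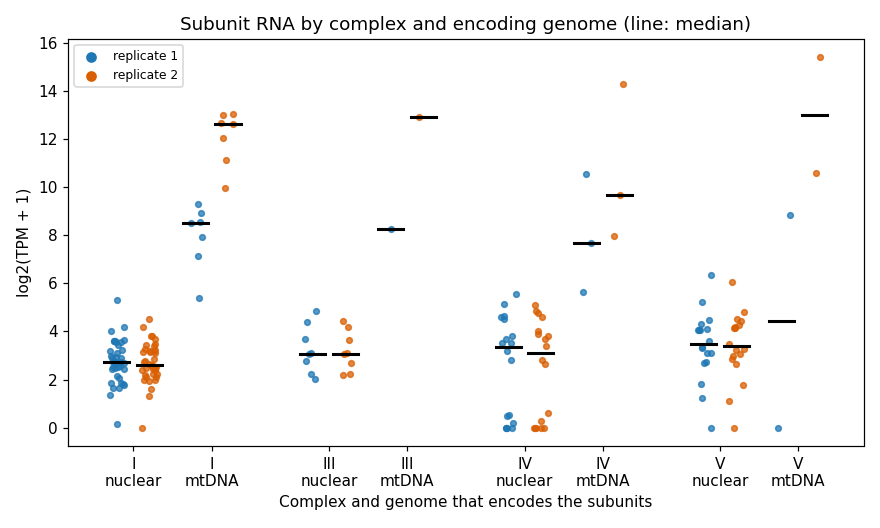
log2(TPM + 1) of subunit genes of complexes I, III, IV and V, split by encoding genome and library; each point is a gene and each line the median. Nuclear genes lie at like levels in both libraries, whereas mitochondrial genes are higher in replicate 2.

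Between the libraries, nuclear-encoded members were mostly higher in replicate 2 than the median gene. Unadjusted TPM was higher in replicate 1 for 50 of the 82 detected members and in replicate 2 for 32. The difference used here is the log2 ratio of replicate 2 to replicate 1, with 1 added to each TPM, less its median over the 12655 genes whose mean was at least 1 TPM. Of 83 members at that mean, 82 reached 1 TPM in both libraries, so at most 1 passed through a single library. By this measure 71 of the 83 (85.5%) were higher in replicate 2 and 12 lower, beside 55.7% of 9556 nuclear-encoded protein-coding genes higher. The members' median was 0.45, beside 0.06 for those 9556 genes and 0.23 for the 1361 of them under 1000 bases of effective length. Of those 1361 shorter genes, 889 were higher. Past 2-fold, 12 of the 83 members were higher, beside 5.46% of the 9556 genes and 163 of the 1361 shorter ones. The members' share was thus above that of all 9556 genes but near that of the shorter ones. Lower past 2-fold were 0 members, beside 1.73% of the 9556 genes and 42 of the 1361. With 1 library on each side and no groups, this describes the spread between 2 samples of 1 group and carries no p-value.

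The shift was present in most complexes. All 17 complex V genes measured were higher, with a median of 0.53, although 16 were on counts without division by length, 15 with TPM rescaled to nuclear-encoded protein-coding genes and 11 without a filter. Complex I subunits had a median of 0.46, with 32 of 37 higher, and complex II one of 0.52, with 2 of 3 higher. Complex IV genes had a median of 0.31 (10 of 11 higher), which was 0.02 in the read-based table. Complex III genes had one of 0.17 (6 of 8 higher), which turned to -0.10 without a filter. Assembly factors had a median of 0.17 with 4 of 7 higher, which turned to -0.22 with rescaled TPM and -0.25 without a filter. Other gene groups of protein synthesis and metabolism were also above 0, at 0.51 for cytosolic ribosomal proteins, 0.30 for mitochondrial ribosomal proteins and 0.22 for the citric acid cycle, the last of which turned to -0.06 without a filter. The other core and carrier genes had a median of -0.07 over 16 measured, but 0.11 on counts. The respiratory chain was thus not the only group above the median gene.

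**Figure D4:**
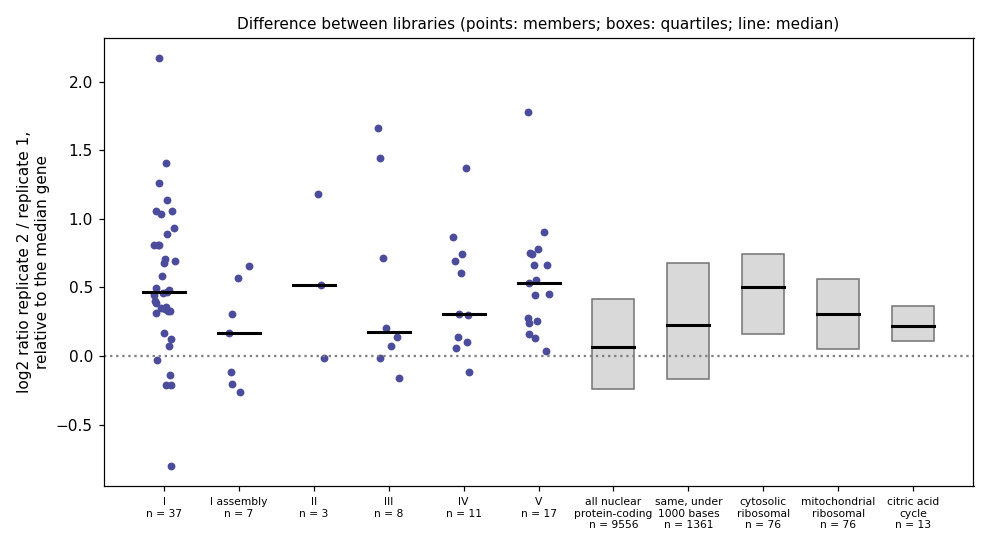
log2 ratio of replicate 2 over replicate 1 relative to the median gene; points are members by complex, boxes are quartiles of comparison groups, and black lines are medians. On this scale complex V genes all lie above 0, and the medians of the comparison groups also lie above 0.

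Several measured features moved with this difference. Macrophage markers were higher in replicate 2 by a median of 1.55, in 8 of 8 genes, and stromal markers had a median of -3.36 and were lower in 7 of 7 measured. Mitochondrial genes were higher by a median of 4.71, in 13 of 13. RNA input, 1 µg and 500 ng, cannot be told apart from the replicate. The part of these features in the difference was not tested.

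Count-level intervals show how far single members are resolved. On counts alone, with no division by length, the ratio to the median gene had a 95% interval wholly above 0 in 34 of 83 members, beside 35.0% of the 9556 protein-coding genes. It lay wholly below 0 in 0 of 83, beside 24.2%. The first share is near the background, and low counts widen the members' intervals. Among the 25 members with 100 or more counts in both libraries, the largest relative differences upward were those of Ndufb5, Atp5f1 and Cox7a2l. Ndufb5, an accessory subunit of the membrane arm, had 6.35 TPM in replicate 1 and 8.09 TPM in replicate 2, a difference of 0.89. Atp5f1, of the peripheral stalk that holds the F1 head, was at 15.6 and 18.0 TPM, a difference of 0.78. For Cox7a2l the difference was 0.75. Their count ratios relative to the median gene were 0.60 (95% interval 0.28 to 0.92), 0.71 (0.50 to 0.93) and 0.84 (0.52 to 1.18). All 3 intervals lie above 0, but the 3 genes were picked for large differences between these same libraries.

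Among the members lowest in replicate 2 by the same rule were Uqcrc1 (-0.16) and Ndufs3 (-0.14). Ndufs3 is a core subunit of complex I at 17.2 and 10.1 TPM. Their count ratios of -0.01 and -0.05 had intervals of -0.24 to 0.22 and -0.41 to 0.30. Both intervals include 0, so a difference of these genes from the median gene was not detectable at this depth. Core subunits of complexes I and III, with medians of 0.33 and 0.07, stood below their accessory subunits, at 0.49 and 0.72. These medians rest on 7 core and 30 accessory genes in complex I, and on only 3 and 5 in complex III. In complex III every core gene had a longer effective length than every accessory gene, and shorter genes at large were shifted upward. The part of length in this contrast was not tested. The members with the largest differences of all, chosen after their values were seen, rest on few counts. Ndufa5 had 7 and 35 counts (2.17 on the TPM scale, with a count interval of 1.18 to 3.79). Atp5mpl had 22 and 79 counts (1.78, with 1.20 to 2.65) and Uqcrb 35 and 116 counts (1.66, with 1.22 to 2.37).

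For some members the scale changed the value. Atp5l had 638.9 and 644.9 counts, so its count ratio to the median gene was 0.07 (-0.10 to 0.23), whereas its difference in TPM was 0.75. Cox6c, with 347 and 352 counts, gave 0.07 (-0.15 to 0.29) by counts and 0.70 by TPM. TPM divides by an effective length that depends on which transcripts of a gene were assigned reads, and that length was 2442 and 1450 bases in replicates 1 and 2 for Atp5l and 1025 and 634 bases for Cox6c.

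Part of the nucleoplasmic RNA of these genes was assigned to transcripts that the annotation types as retaining an intron, which are commonly held in the nucleus. The share of a gene's transcript TPM in such transcripts was taken for 35 members at 5 TPM or more in both libraries, out of 50 that have such a transcript annotated. Their median share was 36.0% in replicate 1 and 26.7% in replicate 2. Nuclear-encoded protein-coding genes under the same rule, 3788 in number, had medians of 39.3% and 33.0%. A share of 50% or more as a mean over libraries was found in 8 of the 35 members (22.9%), beside 27.5% of the 3788 genes, and in 8 members the share was higher in replicate 2, beside 26.7%. The members' shares were thus near those of protein-coding genes at large. Cytosolic ribosomal protein genes had lower medians of 22.1% and 15.7%.

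**Figure D5:**
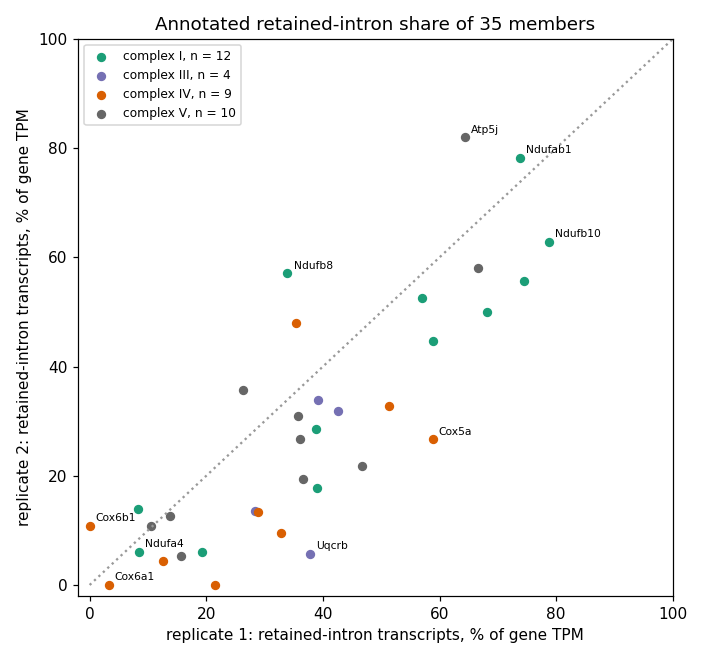
Share of each member's transcript TPM in transcripts annotated as retaining an intron, in percent, in replicate 1 (x) and replicate 2 (y), coloured by complex; the dotted line marks equality. Of 35 members 27 lie below the line, and Ndufab1, Atp5j and Ndufb10 are highest in mean share.

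In the table from the transcriptome alignment, the highest mean shares were those of Ndufab1, Atp5j and Ndufb10. Ndufab1, the mitochondrial acyl carrier protein that is also a complex I subunit, was at 73.8% in replicate 1 and 78.2% in replicate 2. Atp5j, of the peripheral stalk, was at 64.4% and 82.0%, and Ndufb10, of the membrane arm, at 78.8% and 62.9%. The lowest were Cox6a1 (3.26% and 0%), Cox6b1 (0% and 10.8%) and Ndufa4 (8.46% and 6.02%). These extremes depend on the table: in the read-based one Ndufb10 was at 31.8% and 29.2% and Cox6b1 at 41.6% and 18.6%, while Ndufb2, named after its values were seen, was at 82.4% and 84.3%. Atp5b stood between these at 36.0% and 26.7%. Complex I genes had a median of 48.6% over 12 genes and complex IV genes one of 21.1% over 9. That order was not stable: in the read-based table, complex I medians were 34.2% and 30.2% and complex IV medians 40.7% and 20.1% in the 2 libraries. Shares by transcript type are estimates from short reads, and unspliced RNA of introns without an annotated transcript is not counted in them.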

How the data were processed

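The data were total RNA sequencing of 2 libraries of 1 group. Per library, the deposited files are gene and transcript tables from a transcriptome alignment, and another transcript table from reads (mm10, annotation M21), per the labels' notes. Quantification tools and strand setting: not given in the sources used here. Column names match RSEM and kallisto output. Expected counts are the authors' estimated counts per gene, not normalized, and the deposited TPM are scaled to one total per table, per the file headers. Of 81881 entries, 55536 carry gene names. The labels do not say whether the separate biosamples came from separate animals.

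Levels and detection used deposited TPM, with detection at 1 TPM in both libraries. The difference between libraries used a pseudocount of 1, which understates differences of low genes. Shares of counts carry 95% Wilson intervals; count ratios carry exact binomial intervals at 95%; a count of 0 allows 3 counts. Expected counts were rounded for TMM (edgeR 4.0.16) and DESeq2 1.42.0 size factors, tested on simulated data, in R 4.3.3. Python 3.11.15 with biopython 1.88, matplotlib 3.10.9, scipy 1.17.1, pandas 2.3.3 and numpy 2.4.6 served the rest.

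Members, lists and motifs were chosen with earlier results of these data known. Named genes are the 3 highest and the lowest of each complex, all Sdh genes and paralogue sets, members at 0, the 3 largest differences each way with 100 or more counts in both, the 3 highest and lowest retained-intron shares, and the ends of each comparison list; others serve as examples. For paralogues, coding bases were compared in place of the planned protein identity. Alternatives covered thresholds, scaling, filters, the read-based table and single libraries. The own values of 1 member are not reported here; it remains in counts and medians.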

Additional observations from a re-analysis of the deposited data

Results flagged for a closer look

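In the table made directly from reads, 3 tissue-restricted forms of complex IV subunits that had at most 3 counts in the gene table had more than 3 in both libraries. Cox4i2 had 62 counts in replicate 1 and 9 in replicate 2. Cox7a1 had 22 and 14 counts, and Cox6a2 had 6 and 6. As means over libraries, Cox4i1 held 96.3% of the TPM of its pair there, and Cox8a held 91.3% of its set, beside 100% in the gene table. Cox8b, at 0 in the gene table, had 10 and 3 counts there (2.45 TPM in replicate 1), above the 1.45 TPM that a count of 0 allows in replicate 1. Stromal markers, at 5164 and 18 counts, were also higher in replicate 1, as Cox4i2 was; their part in it was not tested.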

How the results depend on the processing

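No paired analysis was possible because the 2 libraries form 1 group. Members detected numbered 49 at 5 TPM in both, and 82 to 84 with 1 library left out. The median level was 25.4 TPM when TPM was rescaled to nuclear-encoded protein-coding genes, 6.96 TPM over detected members only, and 6.02 to 6.30 TPM with 1 library left out. The members' share of counts was 0.104% of nuclear-encoded protein-coding counts and 0.0862% in the read-based table, and 0.0707% to 0.0752% with 1 library left out. The median difference between libraries stayed above 0 in each alternative run, at 0.41 with TMM, 0.38 with DESeq2 size factors, 0.35 with rescaled TPM, 0.38 on counts, 0.53 with a pseudocount of 0.1, 0.17 without a filter, 0.37 with a minimum of 10 counts per library, 0.22 in the read-based table and 0.46 without assembly factors. With rescaled TPM the median of all genes was -0.18 and 42.6% of nuclear-encoded protein-coding genes were higher in replicate 2, beside 76.5% of members; without a filter these shares were 49.6% and 65.9%. Ndufa7, 2-fold higher in replicate 2, turned to -0.60 in the read-based table; the cause was not tested. The median retained-intron share was 26.7% to 36.0% with 1 library left out. Values for single members and paralogue sets, and detection with 1 library left out, were added after seeing the data. Low counts per member limit single-gene differences.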
